A study of Mus musculus with 16 samples.

Results

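The genes described are 10 genes of epithelial cells, out of 37149 genes tested on these arrays. They are the keratins Krt7, Krt8, Krt18 and Krt19, the adhesion molecules Epcam and Cdh1, the desmosome gene Dsp and the tight junction genes Cldn6, Cldn7 and Ocln. The set was selected from measured values of these same arrays, in which Krt19 was far lower in Sp1-/- progenitors than in Sp1+/+ progenitors. Every comparison that holds the progenitor arrays is therefore given as a description, with no test. All 10 genes passed the filter on low intensity, as did nearly all genes on the array. Of the 37149 genes tested, 20122 had a gene symbol. The rest were array targets that matched no named gene, and they count as genes in every share and rank over all genes.

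Keratins form the intermediate filaments of epithelial cells. A type II keratin such as Krt8 or Krt7 pairs with a type I keratin such as Krt18 or Krt19, and the filaments are anchored at desmosomes by desmoplakin, the product of Dsp. Cdh1 encodes E-cadherin, the core of epithelial adherens junctions, and Epcam a surface adhesion molecule, whereas claudins and occludin are the membrane proteins of tight junctions. Krt8 and Krt18 are among the first keratins of the embryo and mark simple epithelia, and E-cadherin is lost from cells that form mesoderm.

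The samples were mouse ES cells differentiated in vitro towards blood, all with C57BL/6 given as the strain. There were 8 groups, 2 genotypes by 4 populations, with 2 arrays per group. The genotypes were wild type (Sp1+/+, titled E14) and Sp1 knock-out (Sp1-/-, titled SP1KO), and according to the study the mutant allele still gives a truncated protein that lacks the DNA-binding domain. Flk1+ cells, which contain mesodermal blood precursors, were isolated from embryoid bodies, and their progeny in blast culture were sorted into HE1 (KIT+ Tie2+ CD41-), HE2 (KIT+ Tie2+ CD41+) and progenitors (KIT+ Tie2- CD41+), where HE stands for hemogenic endothelium. Each genotype was 1 cell line, and the slides followed the genotypes, with 8 arrays per slide, so that genotype, line and slide cannot be told apart. The series and the main text of the study call the arrays of a group biological replicates, while 1 supplementary legend speaks of averaged technical replicates. The p-values measure the spread between these arrays, whatever its source.

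On the 16 arrays, 67.0% to 77.1% of spots exceeded background by the scanner software's criterion (called well above background here), and 0 were saturated. The Sp1 probe read 12.14 to 12.56 log2 units on the Sp1+/+ arrays and 9.03 to 10.29 on the Sp1-/- arrays, with no overlap, and where it lies relative to the mutation was not examined. The mean of 8 endothelial markers rose from 8.89 to 9.65 log2 units on the Flk1+ arrays to 12.78 to 13.12 on the HE1 arrays, and that of 7 blood cell markers ran from 7.85 to 8.76 in HE1 and from 11.56 to 12.66 in progenitors. Levels below are normalized log2 intensities of 1 probe per gene, so a level is compared between samples and never between genes. A gene was called where it changed 2-fold or more with an unadjusted p in limma not above 0.01. The study names the same cutoffs of fold and p, without stating whether its p was adjusted. The p-values printed are Benjamini-Hochberg adjusted over all 37149 genes.

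Krt8, Krt18 and Krt7 lie on mouse chromosome 15, with Krt8 at 101996711 to 102004342 and Krt18 at 102028216 to 102032026 (GRCm38.p6). The others are Krt7 (chr15:101412403-101427806), Krt19 (chr11:100140810-100145926), Cldn7 (chr11:69964779-69967886), Epcam (chr17:87635979-87651127), Cldn6 (chr17:23679348-23682446), Cdh1 (chr8:106603350-106670247), Dsp (chr13:38151294-38198577) and Ocln (chr13:100496504-100552718), all protein-coding. Krt8 and Krt18 lie close together and are read in opposite directions, away from each other. Sp1 is known to bind GC boxes, so the 250 bases before the start of transcription (RefSeq, GRCm38.p6) were searched for the hexamer GGGCGG and its reverse complement CCGCCC. Promoter sequence was at hand for 8 of the 10 genes, and 6 of them held at least 1 such hexamer, against 35.4% of 27025 genes. The windows of Krt8 (chr15:102004343-102004592, minus strand) and Krt18 (chr15:102027966-102028215, plus strand), whose levels followed each other most closely, held none. Krt7 (chr15:101412153-101412402, plus strand), which stayed near background, held 4, as did Dsp (chr13:38151044-38151293, plus strand). Of 2 windows of Cldn7, the one further downstream (chr11:69965171-69965420, plus strand) held 1. These 5 windows are shown 5′ to 3′ in the direction of the gene with the hexamer in capitals, to set the Krt8 and Krt18 pair beside windows that hold it. A match describes the letters of the window and is not a measured binding site.
Krt8: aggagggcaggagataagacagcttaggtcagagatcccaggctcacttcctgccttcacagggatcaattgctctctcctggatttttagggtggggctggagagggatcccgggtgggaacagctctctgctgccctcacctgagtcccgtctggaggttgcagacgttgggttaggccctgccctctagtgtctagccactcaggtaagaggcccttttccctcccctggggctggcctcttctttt
Krt18: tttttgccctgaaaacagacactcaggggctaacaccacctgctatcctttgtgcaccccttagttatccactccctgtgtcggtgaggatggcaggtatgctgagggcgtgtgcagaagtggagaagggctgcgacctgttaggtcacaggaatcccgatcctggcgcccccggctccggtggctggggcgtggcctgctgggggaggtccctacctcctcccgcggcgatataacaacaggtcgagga
Krt7: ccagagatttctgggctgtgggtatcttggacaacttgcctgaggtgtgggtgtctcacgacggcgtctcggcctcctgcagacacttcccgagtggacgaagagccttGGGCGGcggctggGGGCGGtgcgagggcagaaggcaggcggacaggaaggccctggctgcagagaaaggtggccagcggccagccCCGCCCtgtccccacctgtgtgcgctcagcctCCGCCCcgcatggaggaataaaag
Dsp: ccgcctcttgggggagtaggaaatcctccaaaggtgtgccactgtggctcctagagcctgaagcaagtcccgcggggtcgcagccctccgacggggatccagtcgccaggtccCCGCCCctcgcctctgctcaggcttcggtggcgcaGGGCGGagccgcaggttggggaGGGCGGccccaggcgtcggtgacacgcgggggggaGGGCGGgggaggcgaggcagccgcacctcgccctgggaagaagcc
Cldn7: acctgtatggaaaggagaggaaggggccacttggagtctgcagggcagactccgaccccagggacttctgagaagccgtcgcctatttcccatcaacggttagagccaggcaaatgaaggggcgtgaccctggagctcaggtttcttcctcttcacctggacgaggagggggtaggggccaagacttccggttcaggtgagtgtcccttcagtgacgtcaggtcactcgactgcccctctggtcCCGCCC

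Of the 4 keratins, Krt8, Krt18 and Krt19 were well above background on every array. These were far lower in Sp1-/- progenitors than in every other group. In Sp1+/+ cells, Krt19 read 9.83 and 10.36 log2 units in Flk1+ cells. It read 13.23 and 11.64 in HE1, then 12.43 and 10.32 in HE2, and ended at 12.51 and 11.94 in progenitors. The Sp1-/- arrays read 10.33 and 10.42, 12.51 and 11.88, 11.08 and 10.36, and 7.69 and 7.62 in the same order. The genotypes overlapped in Flk1+, HE1 and HE2, and the Sp1-/- progenitors lay below every other array.

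Krt8, the type II partner, read 13.02 and 12.59 log2 units in Sp1+/+ progenitors and 8.26 and 8.55 in Sp1-/- progenitors. In the other 3 populations its means lay between 11.54 and 13.43 in Sp1+/+ cells and between 11.44 and 13.07 in Sp1-/- cells, and the genotypes overlapped in each. Krt18, its type I partner, had means of 14.21 to 15.29 in Sp1+/+ and of 14.31 to 15.60 in Sp1-/- cells in those populations. Its Flk1+ arrays did not overlap between the genotypes, with a difference of -0.44 (SE 0.63, adjusted p = 0.79) that was not called. It read 15.67 and 15.34 in Sp1+/+ progenitors and 12.06 and 12.02 in Sp1-/- progenitors. Over the 8 group means the Pearson r of Krt8 and Krt18 was 0.94, that of Krt18 and Krt19 0.83 and that of Krt8 and Krt19 0.66, a description over 8 points that share their arrays.

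Krt7 behaved differently. Its array values lay between 6.12 and 6.64 log2 units, against a lowest signal well above background of 5.85 to 6.06 on the different arrays, and 12 of 16 arrays were well above background. Its group means spanned 0.37 log2 units in Sp1+/+ and 0.22 in Sp1-/- cells, and it was not called in any comparison.

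**Figure D1:**
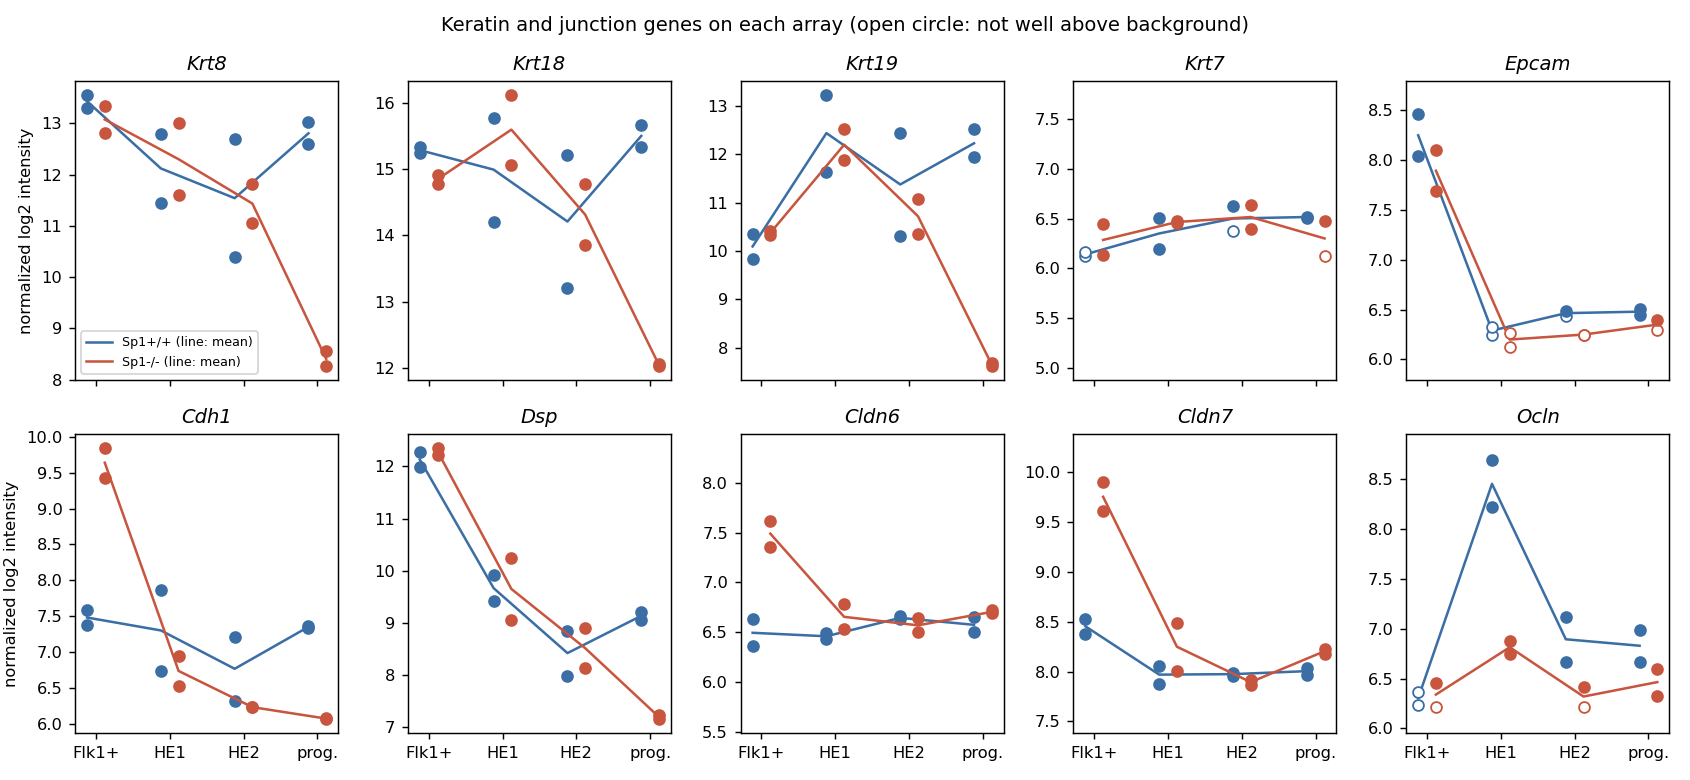
Normalized log2 intensity (vertical axes, a scale of its own for each gene) of the 10 genes in Flk1+ cells, HE1, HE2 and progenitors of Sp1+/+ (blue) and Sp1-/- (red) cells. Each point is 1 array, lines join group means, and open circles mark arrays on which the probe was not well above background. Krt8, Krt18, Krt19, Dsp and Cdh1 part by 2-fold or more between the genotypes in progenitors (Krt19 12.51 and 11.94 against 7.69 and 7.62). Cdh1 and Cldn7 do so in Flk1+ cells and Ocln in HE1.

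As a description of the contrast that the choice of genes used, 5 of the 10 genes met the thresholds of the call in progenitors. All 5 were lower in Sp1-/- cells, and 4.11% of all genes met the thresholds. Since the fall of Krt19 here entered the choice of genes, passing, counts and ranks in progenitors are not a test of the set. Krt19 differed by -4.57 log2 units (SE 0.63), Krt8 by -4.40 (SE 0.69) and Krt18 by -3.46 (SE 0.63). Dsp differed by -1.94 (SE 0.39) and Cdh1 by -1.28 (SE 0.34). Cdh1 no longer passed without any 1 of the 4 progenitor arrays, at -1.29 to -1.26, and the second, dimmer Dsp probe gave -0.41. Ranked by size among all 37149 genes, Krt19 was number 5, Krt8 number 7 and Krt18 number 39. The other 5 genes lay within 0.37 log2 units of the Sp1+/+ mean in either direction, and the median over the 10 was -0.82, against 0.02 over all genes. In bulk samples, fewer cells with a transcript and less of it per cell cannot be told apart.

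Some genes of stroma and smooth muscle were lower in Sp1-/- progenitors, as the keratins were. Of 8 such markers, 4 passed the call as lower in Sp1-/- progenitors, namely the collagens Col1a1 and Col3a1 and the contractile genes Acta2 and Tagln, by -4.70, -2.39, -3.71 and -3.67 log2 units. The other 4 did not pass, and 4.11% of all genes passed there. From Flk1+ to HE1, Col3a1, Acta2 and Tagln were called higher and Pdgfra and Thy1 lower in both genotypes. The log2 of the summed intensity of the list was 17.50 and 17.03 in Sp1+/+ progenitors and 13.69 and 13.58 in Sp1-/- progenitors. The brightest genes weigh most in this sum. In Flk1+ cells the summed level was 13.56 to 13.76. Krt8 had its highest mean there in both genotypes, but Krt19 had its lowest Sp1+/+ mean there. In HE1, where Krt19 had its highest mean in both genotypes, the summed level was 17.62 to 18.54. Krt18 had its highest mean in progenitors in Sp1+/+ cells and in HE1 in Sp1-/- cells. All 8 markers were well above background on every array but 2, on which 7 and 6 were. The part of stromal cells in the keratin values was not tested.

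Genes listed as markers of tissues that themselves carry epithelium were also lower in Sp1-/- progenitors in part. The lists are not confined to those tissues. The study describes Cdx2 as a known regulator of early hematopoiesis, and Sox17 of the visceral endoderm list was called higher in HE1 than in Flk1+ cells in both genotypes. Gata6 and Dab2 of 13 visceral endoderm genes, Cdx2, Gata3, Hand1 and Plac1 of 9 trophoblast genes and Wt1 of 6 mesothelium genes passed as lower, and none of 7 surface ectoderm genes did. Of all genes, 4.11% passed in progenitors in either direction, and no list was tested as a set. The log2 of the summed intensity was 11.95 and 10.91 in Sp1+/+ against 10.50 and 10.51 in Sp1-/- progenitors for visceral endoderm, and 12.02 and 11.59 against 10.04 and 9.98 for trophoblast. Of the other lists, 3 endothelial genes (Cdh5, Esam and Eng) and the pluripotency genes Dppa4 and Dppa5a were lower, and the blood genes Ptprc and Klf1 higher. Their part in the keratin values was likewise not tested.

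The keratins differed strongly between the replicate arrays of hemogenic endothelium. In Sp1+/+ HE2, Krt8 read 12.69 and 10.39, Krt18 15.21 and 13.21, and Krt19 12.43 and 10.32 log2 units. Replicate 1 was higher than replicate 2 for Krt8, Krt18, Krt19 and Dsp in HE1 and HE2 of both genotypes, by 0.49 to 2.30 log2 units. Over all genes, the median absolute difference between the replicates of those groups was 0.13 to 0.19 log2 units (the top hundredth of genes exceeded 1.00 to 1.35, depending on the group). The stroma and smooth muscle list was also higher on replicate 1, with a mean over its genes of 11.07 against 10.32 in Sp1+/+ HE1, 10.47 against 9.41 in Sp1+/+ HE2, 11.43 against 10.77 in Sp1-/- HE1 and 9.86 against 9.55 in Sp1-/- HE2. The endothelial list was lower on replicate 1 in these 4 groups, most of all in Sp1+/+ HE2 with 11.71 against 12.35. Whether the cell make-up of the sorts accounts for this was not tested.

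**Figure D2:**
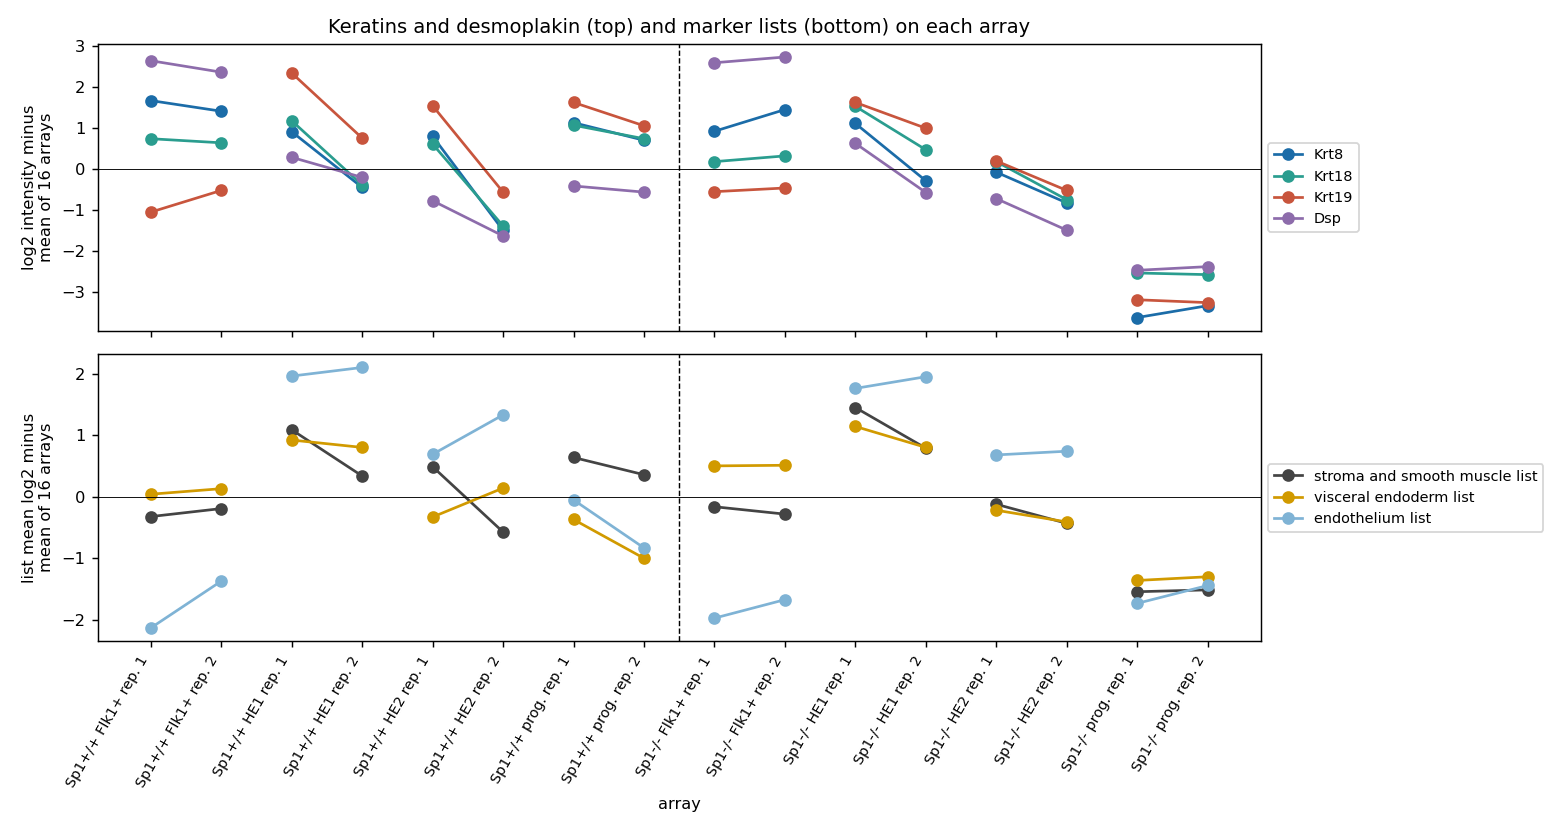
Krt8, Krt18, Krt19 and Dsp (top) and the means of the stroma and smooth muscle, visceral endoderm and endothelium lists (bottom) on each of the 16 arrays, as log2 intensity minus the mean of the 16 arrays. Each line joins the 2 arrays of a group, and the dashed line parts Sp1+/+ (left) from Sp1-/- (right). The keratins and the stroma list are lowest in Sp1-/- progenitors and higher on replicate 1 of HE1 and HE2.

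In Flk1+ cells an adhesion gene and a tight junction gene were called between the genotypes, and no keratin was. Of the 10 genes, these 2 were called, both higher in Sp1-/- cells, where 1.64% of all genes were called in either direction. Cdh1 read 7.58 and 7.38 log2 units in Sp1+/+ and 9.85 and 9.43 in Sp1-/- Flk1+ cells, a rise of 2.16 (SE 0.34, 4.48-fold, adjusted p = 0.00381). Cldn7, a claudin of many epithelia, read 8.53 and 8.38 against 9.90 and 9.61, a rise of 1.30 (SE 0.15, 2.46-fold, adjusted p = 5.51e-04). Neither gene had overlapping arrays.

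Cldn6, a claudin of embryonic epithelia, read 6.63 and 6.36 against 7.62 and 7.36 log2 units in Sp1-/- Flk1+ cells. The difference of 0.99 (SE 0.13, 1.99-fold, adjusted p = 0.00108) fell just short of 2-fold, and with the background offset that the methods state it was 1.38 and was called. It was also called with no background correction (1.29) and with the scanner's processed signal (2.05). Krt8, Krt18, Krt19, Krt7, Epcam, Dsp and Ocln lay between -0.44 and 0.28 in Flk1+ cells and were not called. The median change of the 10 genes was 0.15, against 0.01 over all genes.

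Beside these genes, Foxa2 and Hnf4a of the 13 visceral endoderm markers were higher in Sp1-/- Flk1+ cells, Foxa2 by 2.68 log2 units (SE 0.28, adjusted p = 3.78e-04) and Hnf4a, not well above background on either Sp1+/+ array, at least 2.03-fold (means 6.25 and 7.28, adjusted p = 2.58e-04). The summed level of the list was 13.80 and 13.85 in Sp1+/+ and 14.18 and 14.20 in Sp1-/- Flk1+ cells on the log2 scale. Of 10 pluripotency markers Esrrb was higher and Dppa5a lower. Of 9 trophoblast markers Eomes and Tfap2c were higher and Cdx2, Gata3 and Plac1 lower. No gene of the surface ectoderm, mesothelium, endothelium or blood lists was called, with 0, 1, 1 and 0 genes at an unadjusted p under 0.05 by limma, and of the stroma list Thy1 alone was called, as lower. The part of endoderm or undifferentiated cells in the Cdh1 and Cldn7 values was not tested.

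In HE1 1 of the 10 genes was called between the genotypes, where 2.09% of all genes were. Ocln, which encodes occludin, read 8.69 and 8.22 log2 units in Sp1+/+ HE1 and 6.88 and 6.75 in Sp1-/- HE1, and fell by 1.64 (SE 0.19, 3.12-fold, adjusted p = 6.90e-04). The second of its 2 probes, not used here, was well above background on 3 of 16 arrays. The median change of the 10 genes was 0.05 in HE1 and -0.09 in HE2, against 0.01 over all genes in both. In HE2 none of the 10 genes was called by limma, where 1.95% of all genes were, and 1 of them, Ocln, had an unadjusted p under 0.05. It read 6.67 and 7.12 in Sp1+/+ and 6.22 and 6.42 in Sp1-/- HE2 (adjusted p = 0.131). Without Sp1+/+ HE1 replicate 2, Cdh1 was called in HE1 as well, so that 2 genes were. Among the marker lists, Runx1, Gfi1b and Dcn were higher and Dppa4 and Dppa5a lower in Sp1-/- HE1, and Ptprc was higher and Dppa4 and Dppa5a lower in Sp1-/- HE2. No visceral endoderm, trophoblast, surface ectoderm, mesothelium or endothelium gene was called in either. By limma, 1 and 5 of the trophoblast genes had an unadjusted p under 0.05 in HE1 and HE2, 1 and 0 of the endothelial, 2 and 0 of the surface ectoderm, 0 and 0 of the mesothelium and 2 and 1 of the visceral endoderm genes.

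Whether the genotype effect itself changed from one population to the next was tested as an interaction. From Flk1+ to HE1 a change of the effect was called in 3 of the 10 genes, where 1.60% of all genes were called. The effect on Cdh1 fell by 2.73 log2 units (SE 0.48, adjusted p = 0.0289), from 2.16 higher to -0.57, the effect on Ocln by 1.67 (SE 0.27, adjusted p = 0.0207) and that on Cldn7 by 1.02 (SE 0.21, adjusted p = 0.0509). The Ocln value rests on Flk1+ arrays of which 1 of 4 was well above background. The Cldn7 call was lost without any of 4 arrays, Sp1+/+ Flk1+ replicate 2 (-0.95), Sp1+/+ HE1 replicate 2 (-0.93), Sp1-/- Flk1+ replicate 1 (-0.88) and Sp1-/- HE1 replicate 1 (-0.78). From HE1 to HE2 Ocln alone was called, where 0.743% of all genes were, with a change of 1.07 in the effect (SE 0.27, adjusted p = 0.31). That call was lost without Sp1+/+ HE1 replicate 1 (0.83), Sp1+/+ HE2 replicate 1 (0.84) or Sp1-/- HE2 replicate 2 (0.97).

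**Figure D3:**
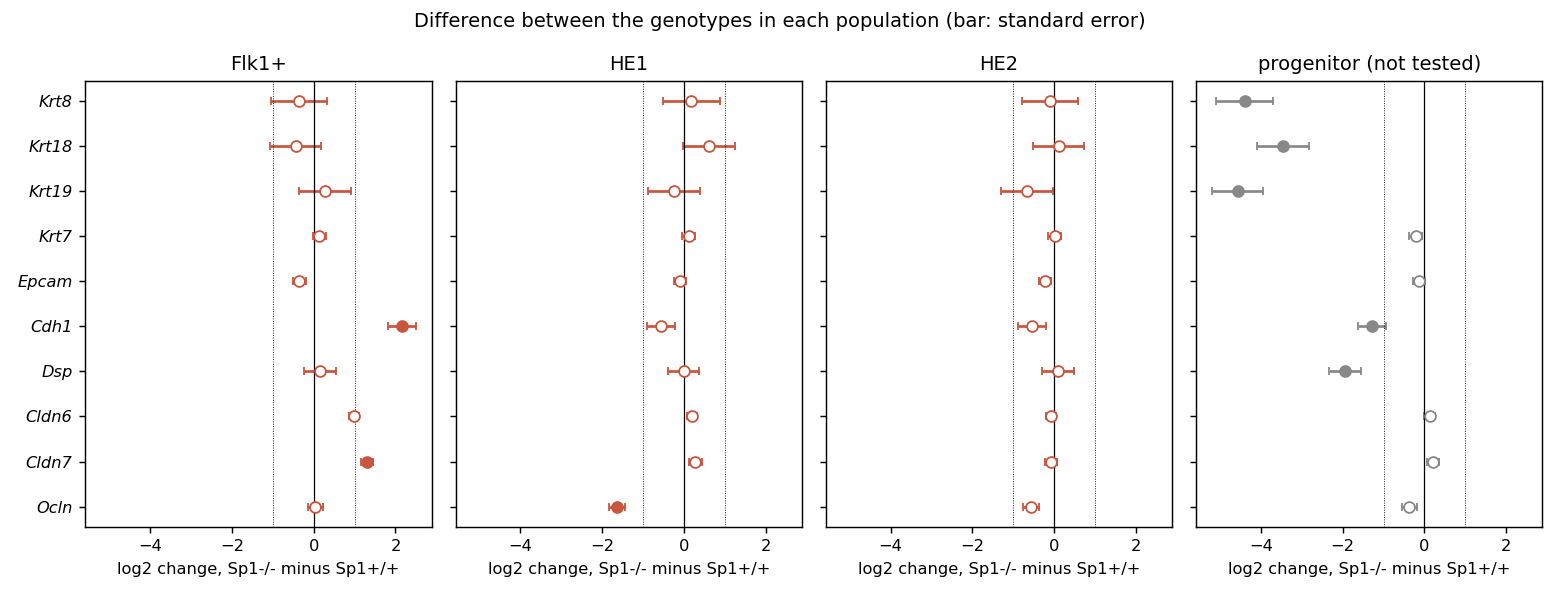
Difference between the genotypes (horizontal axes, log2 units, Sp1-/- minus Sp1+/+) of the 10 genes in each population, with standard errors from the fit over all 16 arrays. Filled points passed the call, dotted lines mark 2-fold, and the grey progenitor panel is a description with no test. Cdh1 (2.16) and Cldn7 (1.30) stand out in Flk1+ cells, Ocln (-1.64) in HE1, and Krt19, Krt8 and Krt18 (-4.57, -4.40 and -3.46) in progenitors.

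Between Flk1+ cells and HE1 the calls were equal in number in both genotypes. In Sp1+/+ cells 4 of the 10 genes were called at this step, where 8.55% of all genes were, and in Sp1-/- cells also 4, where 9.49% were. The median change of the 10 genes was -0.24 log2 units in Sp1+/+ and -0.80 in Sp1-/- cells, against -0.01 over all genes in both. Of these, Epcam and Dsp were called in both, Krt19 and Ocln in Sp1+/+ cells, and Cdh1 and Cldn7 in Sp1-/- cells.

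Epcam fell to background. It read 8.46 and 8.04 log2 units in Sp1+/+ Flk1+ cells and 6.25 and 6.33 in HE1, where neither array was well above background, so that it was at least 3.89-fold lower (adjusted p = 3.80e-06). The Sp1-/- arrays read 8.10 and 7.69 in Flk1+ cells and 6.27 and 6.13 in HE1, at least 3.24-fold lower (adjusted p = 8.90e-06), again with no HE1 array well above background. From HE1 on its group means stayed between 6.20 and 6.48 in both genotypes. The genotype difference in Flk1+ cells was -0.35 (SE 0.15, adjusted p = 0.206) and was not called.

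Dsp, which links keratin filaments to desmosomes, fell in steps. In Sp1+/+ cells it read 12.27 and 11.99 log2 units in Flk1+ cells, 9.91 and 9.42 in HE1, then 8.85 and 7.99 in HE2, and ended at 9.21 and 9.06 in progenitors. Its Sp1-/- values were 12.22 and 12.36, 10.25 and 9.05, 8.90 and 8.13, and 7.15 and 7.24. The genotypes overlapped up to HE2 and parted in progenitors. From Flk1+ to HE1 it fell by 2.47 (SE 0.39, adjusted p = 5.97e-04) in Sp1+/+ cells, and it fell by 2.64 (SE 0.39, adjusted p = 3.34e-04) in Sp1-/- cells. From HE1 to HE2 it fell by 1.24 in Sp1+/+ cells (SE 0.39, adjusted p = 0.0674), a call that was lost on leaving out 11 of the 16 arrays in turn (log2 changes of -0.82 to -1.49) and in the mean over its 2 probes (-0.82). The change in Sp1-/- cells was -1.14 (SE 0.39, adjusted p = 0.0652) and was not called.

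Cdh1 stayed within 0.71 log2 units over its Sp1+/+ group means, and read 7.86 and 6.74 log2 units in HE1, then 7.21 and 6.32 in HE2, and ended at 7.34 and 7.36 in progenitors. The Sp1-/- arrays read 6.94 and 6.53 in HE1, then 6.23 and 6.23 in HE2, and ended at 6.06 and 6.08 in progenitors, and only 1 progenitor array was well above background. From Flk1+ to HE1 it fell by 2.91 (SE 0.34, 7.52-fold, adjusted p = 6.91e-05) in Sp1-/- cells, against -0.18 (SE 0.34, adjusted p = 0.809) in Sp1+/+ cells. Cldn7 fell by 1.51 (SE 0.15, 2.84-fold, adjusted p = 1.92e-05) at the same step in Sp1-/- cells, to 8.01 and 8.49. In Sp1+/+ cells its change was -0.49 (SE 0.15, adjusted p = 0.0323), short of 2-fold. From HE1 on, the Cldn7 group means lay between 7.89 and 8.25 in both genotypes, and Cldn6, with -0.83 (SE 0.13, adjusted p = 4.17e-04) from Flk1+ to HE1 in Sp1-/- cells, stayed between 6.46 and 6.71.

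Ocln and Krt19 rose into HE1 in Sp1+/+ cells. Ocln was not well above background on either Sp1+/+ Flk1+ array, which read 6.37 and 6.24 log2 units, and was at least 4.44-fold higher in HE1 (adjusted p = 1.24e-05). It then fell by 1.56 from HE1 to HE2 (SE 0.19, 2.95-fold, adjusted p = 7.45e-04) and read 6.99 and 6.67 in progenitors. The Sp1-/- means of Ocln ran from 6.34 in Flk1+ cells over 6.81 and 6.32 to 6.46 in progenitors, and neither tested step was called. With the scanner's processed signal Ocln did rise from Flk1+ to HE1 in Sp1-/- cells, by 1.92 (adjusted p = 0.0198) in place of 0.47. Krt19 rose by 2.34 from Flk1+ to HE1 (SE 0.63, 5.06-fold, adjusted p = 0.0171) in Sp1+/+ cells. The call was lost without Sp1+/+ Flk1+ replicate 1 (2.07) or Sp1+/+ HE1 replicate 1 (1.55). In Sp1-/- cells the change was 1.82 (SE 0.63, adjusted p = 0.0506), not called. It was called, with the same change, without any 1 of the 4 Sp1+/+ HE1 and HE2 arrays (adjusted p = 0.0131 to 0.0331) and with only the arrays compared (adjusted p = 0.0144). The difference between the changes in the genotypes was -0.52 (SE 0.89, adjusted p = 0.875).

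From HE1 to HE2 2 of the 10 genes, Dsp and Ocln, were called in Sp1+/+ cells, where 3.31% of all genes were. In Sp1-/- cells none was called by limma, where 5.61% of all genes were, and 4 of the 10 had an unadjusted p under 0.05. Leaving out either Sp1+/+ HE2 array, which changes only the estimate of the spread here, Krt19 and Dsp were called there, and Dsp was without Sp1-/- HE1 replicate 2 or Sp1-/- HE2 replicate 1. The steps from HE2 to progenitors hold arrays that the choice of genes used and are described only. In Sp1+/+ cells none of the 10 genes passed, where 1.74% of all genes did. Without Sp1+/+ HE2 replicate 1, the array with the higher keratin values, Krt8, Krt18 and Krt19 passed. In Sp1-/- cells 4 passed, where 5.00% of all genes did, with -3.06 for Krt19, -3.03 for Krt8, -2.28 for Krt18 and -1.32 for Dsp, and Krt19 alone passed without Sp1-/- HE2 replicate 1, with Krt8 at -2.66, Krt18 at -1.81 and Dsp at -0.93. Without either Sp1-/- progenitor array Krt8 and Krt19 passed, and the changes of Krt18 (-2.29 and -2.25) and Dsp (-1.28 and -1.36) stayed about as large.

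**Figure D4:**
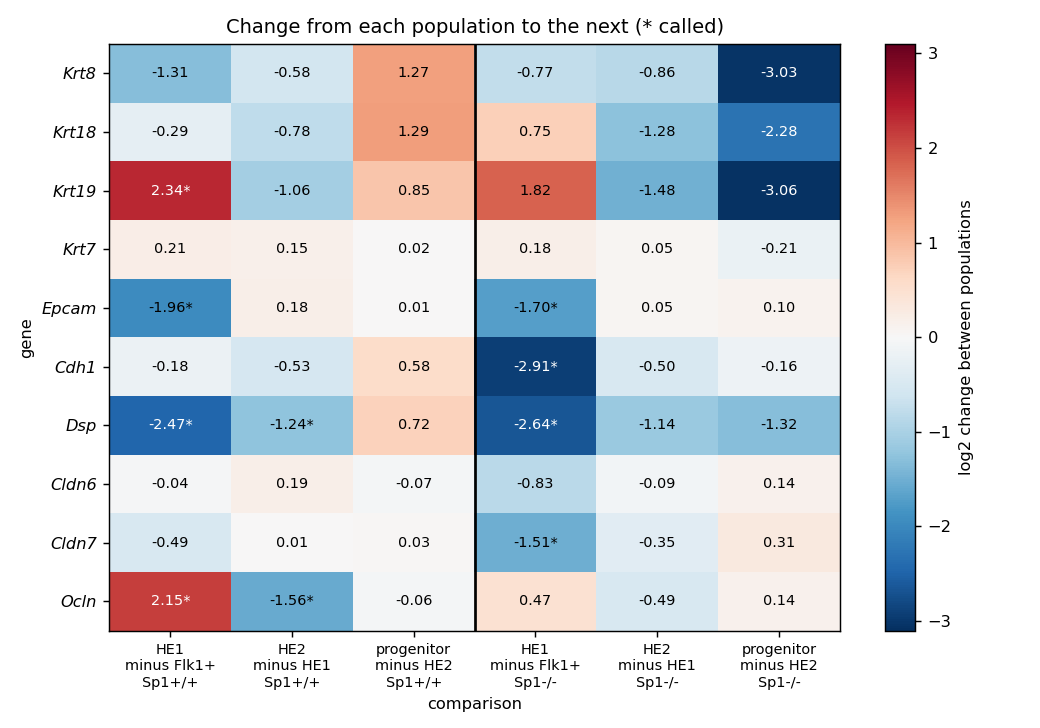
Log2 change of the 10 genes (rows) from each population to the next (columns), in Sp1+/+ (left 3 columns) and Sp1-/- cells (right 3 columns), with red for a rise and blue for a fall. Asterisks mark calls in the tested columns, and the columns from HE2 to progenitors are descriptions without a test and carry none. Epcam and Dsp fall from Flk1+ to HE1 in both genotypes, and Krt8, Krt18 and Krt19 change by 1.27, 1.29 and 0.85 from HE2 to progenitors in Sp1+/+ against -3.03, -2.28 and -3.06 in Sp1-/- cells.

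Other genes of the same structures were taken from lists of 14 further keratins, 19 tight junction genes, 12 desmosome genes, 12 adherens junction genes and 22 epithelial regulators and effectors. Of the keratins, 12 were well above background in some group. None of the 14 was called between the genotypes by limma in Flk1+ cells, HE1 or HE2. In that order, 4, 4 and 2 had an unadjusted p under 0.05 by limma. Of all genes, 1.64%, 2.09% and 1.95% were called there. At such low shares, a list this short can hold no call without differing from all genes. The same limit applies to the lists below. The median changes of the 14 keratins were -0.06, 0.12 and 0.00, against 0.01 over all genes. Krt14 and Krt20 rose from Flk1+ to HE1 in Sp1-/- cells, and for Krt14 the genotype effect changed at this step by 1.13 (SE 0.26, adjusted p = 0.0791).

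Of the tight junction genes, Tjp3, a scaffold protein of the junction, was called in Flk1+ cells and Cgn, which encodes the junctional protein cingulin, in HE2, both higher in Sp1-/- cells. Tjp3 read 7.69 and 7.50 log2 units in Sp1+/+ and 8.94 and 8.64 in Sp1-/- Flk1+ cells (1.20, SE 0.14, adjusted p = 7.85e-04). Cgn read 8.64 and 7.86 in Sp1+/+ and 9.46 and 9.59 in Sp1-/- HE2 (1.28, SE 0.35, adjusted p = 0.0622), and the call was lost without Sp1+/+ HE2 replicate 2 (0.88) and, at a change about as large, without either Sp1-/- array (1.34 and 1.21). In progenitors Cgn read 9.47 and 10.18 against 12.54 and 12.48, the opposite direction to the keratins there. None of the 19 was called in HE1, with 6 at an unadjusted p under 0.05 by limma. The median change of the list was 0.09, 0.03 and 0.06 in Flk1+ cells, HE1 and HE2. F11r, a junctional adhesion molecule gene, rose from Flk1+ to HE1 and Cxadr, Pard6b and Patj fell in both genotypes.

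Among the desmosome genes Evpl, the plakin envoplakin, was called in HE2 alone, at 8.18 and 8.21 log2 units in Sp1+/+ and 9.15 and 9.43 in Sp1-/- cells (2.14-fold, SE 0.14 log2 units, adjusted p = 0.00106), though not without Sp1-/- HE2 replicate 2 (a log2 change of 0.96). None of the 12 was called in Flk1+ cells or HE1, with 3 and 2 at an unadjusted p under 0.05 by limma. From Flk1+ to HE1 the desmosomal cadherin Dsg2 and the plakophilin Pkp1 fell, and Pkp2 and Perp rose, in both genotypes. Among the adherens junction genes Cdh2, encoding N-cadherin, rose by 1.03 in Sp1-/- HE1 (SE 0.23, adjusted p = 0.0198), from 13.02 and 13.54 to 14.23 and 14.39, and Nectin2 fell by 1.05 in HE2 (SE 0.29, adjusted p = 0.0639), though not without Sp1+/+ HE2 replicate 2 (-0.58) or Sp1-/- HE2 replicate 2 (-0.81). The Cdh2 call was lost without Sp1+/+ HE1 replicate 1 (0.77) or Sp1-/- HE1 replicate 2 (0.95). None of the 12 adherens junction genes was called in Flk1+ cells, with 2 at an unadjusted p under 0.05 by limma. In the order Flk1+, HE1, HE2 the median changes were 0.00, 0.00 and -0.06 for the desmosome and 0.19, -0.16 and -0.23 for the adherens junction list.

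Of the regulators and effectors, the transcription factor gene Tfap2c was called higher in Sp1-/- Flk1+ cells (1.16, SE 0.33, adjusted p = 0.0594) and Lsr, which encodes a protein of tricellular tight junctions, lower in HE1 (-1.16, SE 0.25, adjusted p = 0.0156). Tfap2c read 10.01 and 9.36 log2 units against 11.09 and 10.60. Lsr read 12.26 and 11.49 against 11.08 and 10.35. Tfap2c was not called without Sp1+/+ Flk1+ replicate 2 (0.83) or Sp1-/- Flk1+ replicate 1 (0.91), nor Lsr without Sp1+/+ HE1 replicate 1 (-0.78) or Sp1-/- HE1 replicate 2 (-0.79). With the offset of 16 (1.18) or the processed signal (1.21) Tfap2c was not called either, and with only the arrays compared Lsr was not (-1.16, adjusted p = 0.271). None of the 22 was called in HE2, with 3 at an unadjusted p under 0.05 by limma. From Flk1+ to HE1 Elf3, Tfap2c, Prss8, Spint1, Ap1m2 and Lsr fell in both genotypes, and Esrp1, a splicing factor of epithelial cells, fell by 1.47 in Sp1-/- cells (SE 0.30, adjusted p = 0.00296) against a change of 0.06 in Sp1+/+ cells (SE 0.30, adjusted p = 0.937). The genotype effect on Esrp1 changed by -1.53 at this step (SE 0.42, adjusted p = 0.135) and that on Tfap2c by -1.56 (SE 0.46, adjusted p = 0.167), both called. The median change of the list was 0.02, -0.13 and 0.03 in Flk1+ cells, HE1 and HE2. Described without a test, genes of the other lists that passed in Sp1-/- progenitors included Tjp1, Cdh2, Cdh3, Nectin2 and Lsr as lower and Grhl1 and Cgn as higher, and no gene of the keratin and desmosome lists passed there.

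Among 2853 genes whose group means spanned at least 2 log2 units, the 5 with a pattern most like Krt19 over the 8 group means were Krt42 (Pearson r = 0.992), Cxcl12 (0.971), Tent5b (0.966), Ccn2 (0.957) and Gpat3 (0.954). Krt42, another type I keratin, had means of 8.08, 9.98, 9.20 and 9.89 log2 units from Flk1+ cells to progenitors in Sp1+/+ and of 8.34, 9.62, 8.59 and 6.74 in Sp1-/- cells, and whether its probe also captures Krt19 RNA was not tested. The 5 most like the mean of the 10 genes were Wscd2 (0.988), Fzd2 (0.978), Sulf1 (0.971), Mdfi (0.962) and Nxn (0.959).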

How the data were processed

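The data are one-colour Agilent arrays of 8 groups with 2 arrays each. The authors deposited scanner output (intensity of spot and local background, background flags) and a table of log2 values, background-corrected with limma's normexp and quantile-normalized. The methods name an offset of 16, but the deposited log2 values were matched by recomputation with an offset of 50 (largest difference 0.0258, against 1.63 with 16). Labels give Feature Extraction 10.7.1.1, the file headers 10.7.3.1. The deposited log2 values were used. Control spots were dropped, outlier spots (95 to 182 per array) set missing, spots of a probe averaged, and targets named through RefSeq accessions (GRCm38.p6, 20869 of 37932 matched, 12 by symbol). The brightest probe stood for a gene, and 37149 of 37203 genes reached log2 6 on at least 1 array. A limma 3.58.1 model (R 4.3.3) with 1 coefficient per group (8 residual degrees of freedom) gave all tests, and its code was tested on simulated data. For a gene not well above background on either array of a group, the fold is a bound against the higher of the gene's signal and the lowest signal well above background. The number of arrays limits the precision.

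The 10 genes and the lists were chosen with earlier results of these data known. Named beside them are, from each list, up to 4 called genes with the largest genotype difference in Flk1+, HE1 or HE2, the genes of like pattern and markers. Markers named singly, and list genes of the steps between populations, were chosen with their values seen, and 1 list gene is not reported here. Alternatives were other background corrections and normalization, other filters, the mean over probes, an adjusted p of 0.05, a replicate block, only the arrays compared, and leaving out each array.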

Additional observations from a re-analysis of the deposited data

Results flagged for a closer look

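The effect of the genotype changed between populations past the thresholds of the call in 4 cases by the interaction test. From Flk1+ to HE1 it changed by -2.73 log2 units for Cdh1 (adjusted p = 0.0289), by -1.02 for Cldn7 (adjusted p = 0.0509) and by -1.67 for Ocln (adjusted p = 0.0207), each as the effect in HE1 minus the effect in Flk1+ cells in the limma fit. From HE1 to HE2 it changed by 1.07 for Ocln (adjusted p = 0.31). The Cdh1 call was lost with the processed signal and the Cldn7 call at an adjusted p of 0.05. The Ocln call from HE1 to HE2 was lost under 4 of the other settings. Slide follows genotype, and the slide is shared by all populations of a genotype.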

How the results depend on the processing

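The number of the 10 genes called was recomputed for 12 comparisons under 9 other settings and without each of the 16 arrays. No called change reversed. The Flk1+ genotype count went from 2 to 3 with a normexp offset of 16, no background correction and the processed signal, Cldn6 being added each time. From HE1 to HE2 in Sp1+/+ cells the count went from 2 to 1 with the mean over probes, with an adjusted p of 0.05 and with only the arrays compared, Dsp being lost each time. In Sp1-/- cells it went from 0 to 1 with the processed signal (Ocln), with the replicate block (Dsp) and with only the arrays compared (Krt19). With the processed signal the HE2 genotype count went from 0 to 1 (Ocln). The change of the genotype effect from HE1 to HE2 went from 1 gene to 0 with a normexp offset of 16, the processed signal, the mean over probes and an adjusted p of 0.05, and the change of the Cdh1 effect from Flk1+ to HE1 was not called with the processed signal (-3.36, adjusted p = 0.305). The cause was not tested.

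Leaving out 1 array, the genotype counts ranged from 2 to 3 for Flk1+ cells, from 1 to 2 for HE1, from 0 to 0 for HE2 and from 4 to 5 for progenitors. They ranged from 3 to 4, 1 to 3 and 0 to 3 along the 3 steps in Sp1+/+ cells, from 4 to 5, 0 to 2 and 1 to 4 in Sp1-/- cells, and from 2 to 3 and 0 to 1 for the 2 interactions. The replicate number was not taken as a pairing, since no label ties equal numbers to a shared culture or day and the correlation of deviations was over 0.1 in 11 of 28 pairs of groups (range -0.174 to 0.503). The methods of the study describe HE1, HE2 and progenitors as sorted from the same harvest of blast culture. Arrays of these populations with equal numbers may therefore share a culture, and a shared effect in some of these pairs remains possible. The tests between populations were unpaired, and the replicate block was 1 term shared by both genotypes, so pairing within a genotype was not tested. With the replicate block 5 genes, Krt19 (adjusted p = 0.0233) among them, were called from Flk1+ to HE1 in Sp1-/- cells. Over all genes, the processed signal raised the calls by over 1.5 times in every comparison, as from 611 to 1358 in Flk1+ cells, from 777 to 2034 in HE1, from 725 to 1725 in HE2 and from 1525 to 2965 in progenitors. An adjusted p of 0.05 lowered those of the interactions from 595 to 264 and from 276 to 36. Leaving out Sp1-/- HE1 replicate 1 raised the HE1 calls from 777 to 1737 and those of the interactions from 595 to 1518 and from 276 to 933. Leaving out Sp1+/+ Flk1+ replicate 1 raised the Flk1+ calls from 611 to 929 and the first interaction's from 595 to 930. From HE2 to progenitors in Sp1+/+ cells 647 calls became 974 without Sp1+/+ HE2 replicate 1 and 397 without Sp1+/+ progenitor replicate 2. Signals near background, as for Krt7 and Epcam after Flk1+, bound what the arrays can show.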
